A study of Mus musculus with 14 samples.

Results

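Macrophages of the colonic lamina propria are replenished largely by blood monocytes, and a small set of transcription factors gives them their identity. The macrophage identity transcription factors described here are SPI1, CEBPB, MAF, KLF2, KLF4, NR4A1, RUNX3, ID3 and ZEB2. They were chosen by name, with earlier results of these data known. They are 9 of the 24982 genes in the count table, and all 9 were among the 13136 genes with enough reads to be tested.

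The libraries came from macrophages sorted as CD64+CD11b+, Ly6C-MHCII+ cells, within a CD45+ gate that left out CD103+ and Ly6G+ cells, from the colon and cecum of C57BL/6 mice aged 5 weeks, with 1 library per mouse. Every mouse carried the colitis susceptibility locus Cdcs1, the controls included. The tests used 4 WT mice (Cdcs1 alone), 4 IL10RAKO mice (Cdcs1 with Il10ra -/-, lacking the ligand-binding chain of the interleukin-10 receptor) and 4 DKO mice (Cdcs1 with Il10ra -/- and Ccr2 -/-, lacking also the chemokine receptor that draws monocytes from blood). A further WT mouse (mouse 11) and the only CCR2KO mouse (Cdcs1 with Ccr2 -/-) are given as values and entered no test. Both deletions act in all cells of the animal, and each group holds different mice. The authors reported spontaneous colitis in mice lacking Il10ra and milder colitis in mice lacking also Ccr2. They reported no histologic signs of it in wild-type mice or with loss of Ccr2 alone. In the comparisons with WT, receptor loss in the macrophages and colitis in the tissue cannot be told apart.

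SPI1, also called PU.1, opens chromatin at myeloid genes and is required for macrophages to form. CEBPB works beside it and rises in many inflammatory responses. MAF and KLF4 belong to the mature, resting state, KLF2 restrains inflammatory activation, and NR4A1 is both an immediate early gene and a factor of patrolling monocytes. RUNX3 acts downstream of TGF-beta, while ID3 and ZEB2 take part in fixing the identity of tissue macrophages.

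The targeted genes followed the labels. IL10RA stood at 284 ± 70.1 CPM (reads scaled to library size, with TMM factors; mean ± SD, n = 4) in WT, at 7.41 ± 2.67 CPM in IL10RAKO and at 5.31 ± 2.12 CPM in DKO. CCR2 stood at 593 ± 80 CPM in WT, 476 ± 128 CPM in IL10RAKO and 5.67 ± 1.22 CPM in DKO. Macrophage markers were present in every tested mouse: CSF1R, the receptor for the growth factor that macrophages need, ranged from 1998.0 to 4100.7 CPM and FCGR1, which encodes CD64, from 76.9 to 240 CPM. Their levels were not all alike between genotypes. Of 14 markers tested against WT, 2 were higher in IL10RAKO (FCGR1 and H2-AB1). In DKO 1 was higher (MERTK) and 2 were lower (CX3CR1 and ADGRE1, the latter at 641 to 885 CPM in WT and 228 to 519 CPM in DKO). Between 13085287 and 21216468 reads were counted per tested mouse, so that 3 reads, taken as the least the depth can show, equal 0.124 to 0.211 CPM. WT mouse 11 had the fewest reads (12153000), and across genes its median Spearman correlation with WT mice (0.865) was under that of each tested WT mouse (0.931 to 0.942). In bulk libraries, fewer cells with a transcript and less transcript per cell cannot be told apart.

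Against WT, mice lacking the interleukin-10 receptor showed a split among the 9 factors. CEBPB and RUNX3 rose and MAF and KLF2 fell in both knockouts, each by 1.9-fold or more, with no overlap between WT mice and knockout mice. NR4A1, ZEB2 and KLF4 did not pass the test in either knockout. SPI1 passed as higher in IL10RAKO and ID3 as lower in DKO, both near the threshold. None of the 9 factors passed between DKO and IL10RAKO.

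In numbers, 5 of 9 factors passed the test between IL10RAKO and WT (edgeR quasi-likelihood test, Benjamini-Hochberg adjusted p under 0.05 over 13136 genes), of which 3 were higher and 2 lower. Across all genes 15.8% passed, 8.7% higher and 7.1% lower. Between DKO and WT 5 of 9 passed, 2 higher and 3 lower, beside 18.5% of all genes, of which 9.23% were higher and 9.22% lower. The groups did not overlap for 4 factors in each of these comparisons, beside 18.2% of all genes for IL10RAKO and 22.2% for DKO. Over the 9 factors the median log2 fold change was 0.06 for IL10RAKO and -0.27 for DKO, beside -0.07 and -0.06 over all genes. Both comparisons use the same 4 WT mice and are not independent of each other.

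**Figure D1:**
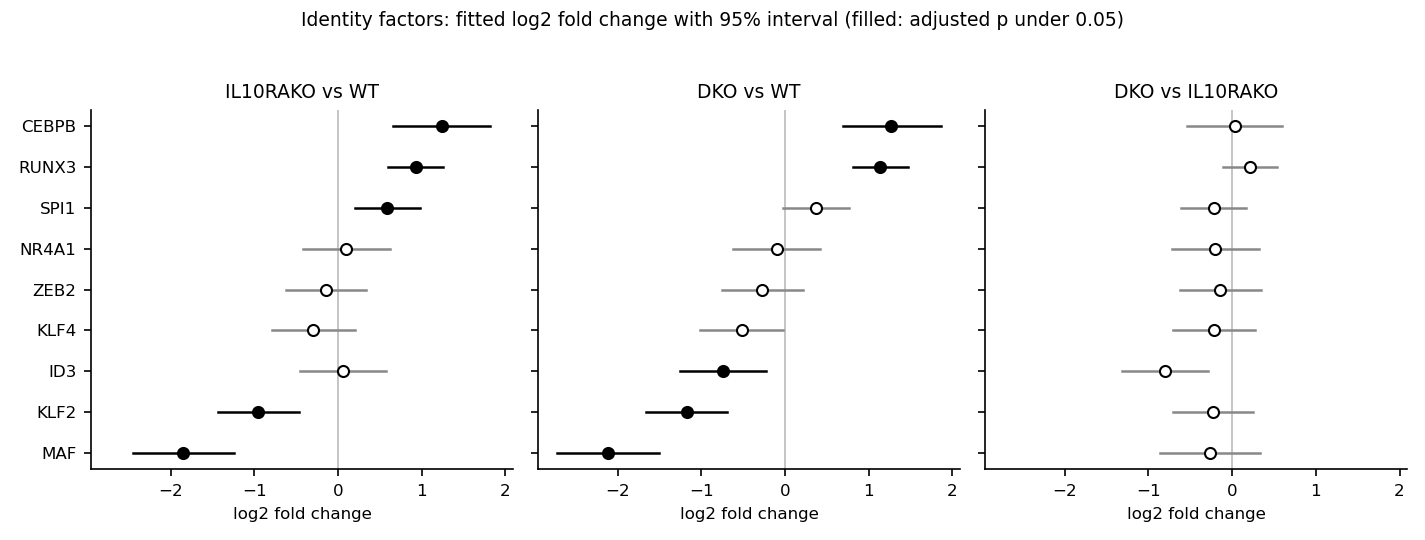
Fitted log2 fold change of the 9 identity factors (rows) in each of the 3 comparisons (panels, same axis), with 95% intervals; filled points passed the test. CEBPB and RUNX3 lie to the right of 0 and KLF2 and MAF to its left in both comparisons with WT, and no point is filled between DKO and IL10RAKO.

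Per kilobase of exon the factors spanned a wide range of levels in WT. CEBPB was the most abundant, at 1048.6 ± 264 CPM per kb, rank 26 of the 13022 genes ranked. KLF2 (410 ± 76.2 CPM per kb), NR4A1 (399 ± 149 CPM per kb) and SPI1 (188 ± 29.5 CPM per kb) followed at ranks 75, 77 and 180. ID3 had 49.8 ± 9.51, KLF4 35.9 ± 12.6, RUNX3 21.6 ± 1.81, ZEB2 12.8 ± 1.19 and MAF 4.79 ± 0.654 CPM per kb, the last at rank 6206. The SD ranges of neighbours in this order overlapped for KLF2 with NR4A1, ID3 with KLF4 and KLF4 with RUNX3, so these neighbours are not ordered beyond their spread. In IL10RAKO and DKO the mean of RUNX3 (41 and 47.5 CPM per kb) stood above that of KLF4 (29.3 and 25.1 CPM per kb), and the mean of SPI1 (283 and 243 CPM per kb) above that of KLF2 (213 and 182 CPM per kb). These orders between genes rest on exon length and were not tested.

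**Figure D2:**
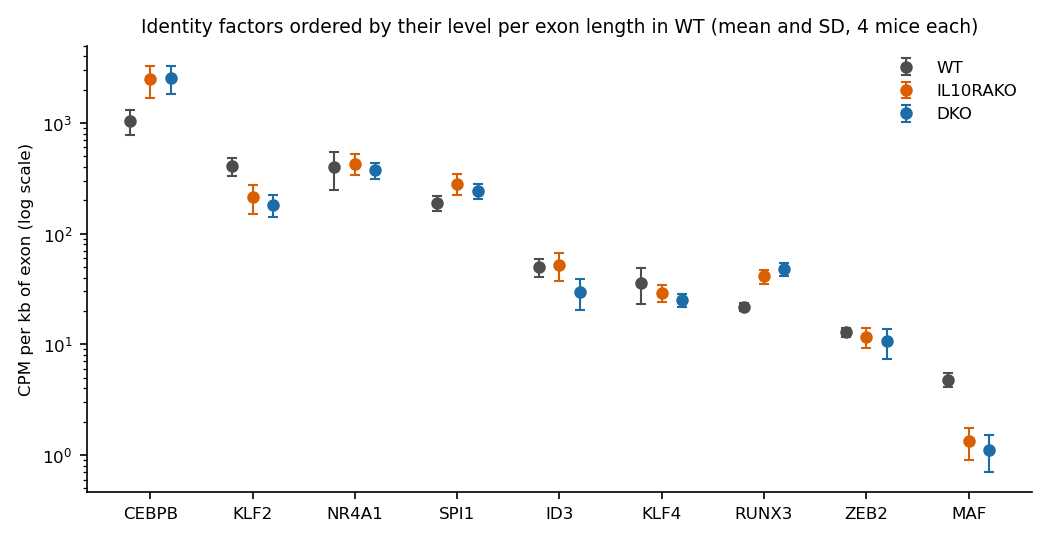
Level of each identity factor in CPM per kb of exon (log axis; mean and SD over 4 mice) in WT, IL10RAKO and DKO, ordered by the WT mean. Levels in WT run from 1048.6 for CEBPB to 4.79 for MAF, and MAF drops to 1.33 and 1.11 in the knockouts.

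CEBPB (chr2:167688915-167690418, plus strand, GRCm38), a leucine zipper factor that drives cytokine and acute phase genes, rose in both knockouts. It measured 2076.7, 1467.9, 1121.9 and 1641.9 CPM in WT mice 4, 5, 10 and 13. In IL10RAKO mice 1, 2, 7 and 8 it measured 4381.4, 3449.9, 2185.3 and 4918.7 CPM, and in DKO mice 3, 9, 12 and 14 it measured 2888.7, 5161.4, 2976.2 and 4239.6 CPM. Every knockout mouse lay above every WT mouse, by a small margin for IL10RAKO mouse 7 and WT mouse 4. The rise was 2.37-fold in IL10RAKO (log2 fold change 1.24, SE 0.271, adjusted p = 0.00594) and 2.42-fold in DKO (1.27, SE 0.271, adjusted p = 0.00459). CEBPB has a single exon, and 312 of its bases overlap an exon of Tmem189 on the opposite strand. TMEM189 rose as well, from 164 ± 11.1 CPM in WT to 330 ± 58 CPM in IL10RAKO and 361 ± 59.8 CPM in DKO (adjusted p = 0.000832 and 0.000274). Since the strand setting of the counting is not given in the sources used here, reads from the shared bases cannot be told apart.

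The 250 bases before the CEBPB start (chr2:167688665-167688914, plus strand, RefSeq promoter table, GRCm38.p6) are shown because this is the most abundant factor and it rose together with RUNX3. They hold 81.6% G and C, and none of the 12 motifs searched was found in this window.
CEBPB: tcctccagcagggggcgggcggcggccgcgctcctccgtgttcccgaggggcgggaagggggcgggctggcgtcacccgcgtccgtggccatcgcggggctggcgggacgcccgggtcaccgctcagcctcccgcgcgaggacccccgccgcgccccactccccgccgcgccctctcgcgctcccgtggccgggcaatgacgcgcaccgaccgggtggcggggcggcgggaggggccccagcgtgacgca

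Markers of other blood cells that use CEBPB also moved. Of 6 tested neutrophil markers 5 were higher in each knockout, and the 9 listed genes summed to 75.2 to 122 CPM in WT, 137 to 314 CPM in IL10RAKO and 166 to 270 CPM in DKO. Most of that sum is CSF3R (73.4 to 117, 132 to 230 and 131 to 224 CPM), which is also on the SPI1 list below, while S100A8, a granulocyte and monocyte calcium-binding protein, was 0 to 0.732 CPM in WT, 0.809 to 42.8 CPM in IL10RAKO and 9.83 to 21.4 CPM in DKO. The granule gene ELANE had at most 3 reads in every mouse and MPO in every WT and IL10RAKO mouse. Another granule gene, NGP, was among the higher genes in both knockouts (0 to 0.143 CPM in WT, 0 to 10.2 CPM in IL10RAKO and 7.17 to 21 CPM in DKO). So was S100A9 (0 CPM in WT, 0.506 to 40.8 CPM in IL10RAKO and 8.01 to 16.9 CPM in DKO). The sort left out Ly6G+ cells, and the part of any that remained in the CEBPB result was not tested.

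SPI1 (chr2:91082390-91115756, plus strand) measured 615, 508, 478 and 427 CPM in WT, 883, 646, 607 and 916 CPM in IL10RAKO and 742, 720, 525 and 627 CPM in DKO, mice in the same order as above. The highest WT mouse lay above the lowest mouse of each knockout, so the groups overlapped. SPI1 was 1.5-fold higher in IL10RAKO (log2 fold change 0.59, SE 0.182, adjusted p = 0.0411), and in DKO the difference was 0.37 (SE 0.182, adjusted p = 0.187). The rise in IL10RAKO rests on a narrow margin. It no longer passed without WT mouse 5 (adjusted p = 0.0811), 10 (0.0923) or 13 (0.113), without IL10RAKO mouse 1 (0.115) or 8 (0.122), or without DKO mouse 9 (0.0517) or 14 (0.0539), and with library totals in place of TMM it was 0.27 (adjusted p = 0.234).

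MAF (chr8:115682942-115707794, minus strand), a large Maf factor tied to interleukin-10 and to scavenger receptor genes in resident macrophages, fell the furthest of the 9 factors in both knockouts. It measured 34.8, 36.3, 40 and 46.9 CPM in WT, 9.46, 7.66, 15.8 and 11 CPM in IL10RAKO, and 5.74, 6.72, 11.7 and 12.3 CPM in DKO. The highest knockout mouse stayed well under the lowest WT mouse. The fall was 3.59-fold in IL10RAKO (log2 fold change -1.85, SE 0.281, adjusted p = 0.000437) and 4.32-fold in DKO (-2.11, SE 0.284, adjusted p = 0.000142). The values rest on 620 to 966 reads per WT mouse, 123 to 312 per IL10RAKO mouse and 104 to 249 per DKO mouse. An exon of Gm15655 on the opposite strand overlaps 440 bases of MAF exons, and this gene is not listed in the count table.

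KLF2 (chr8:72319033-72321656, plus strand), a zinc finger factor that holds down inflammatory activation in myeloid and endothelial cells, also fell. It measured 822, 597, 691 and 916 CPM in WT, 268, 443, 525 and 334 CPM in IL10RAKO, and 323, 350, 424 and 244 CPM in DKO. The groups did not overlap, the nearest pair being WT mouse 5 and IL10RAKO mouse 7. KLF2 fell 1.93-fold in IL10RAKO (log2 fold change -0.95, SE 0.227, adjusted p = 0.0108) and 2.26-fold in DKO (-1.17, SE 0.228, adjusted p = 0.00242).

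The 250 bases before the RefSeq start of KLF2 (chr8:72318812-72319061, plus strand, same table) are shown with the only motif match found there in capitals, a MEF2 element. It lies 118 bases before the RefSeq start and 89 before the GENCODE start given above, since the RefSeq start is 29 bases downstream and the last bases of the window fall inside the GENCODE gene. That motif was found in 3.2% of the 32851 promoter windows searched, and the KLF2 window holds 71.2% G and C. MEF2C itself, a MADS box factor, stood at 276 ± 88.1 CPM in WT, 153 ± 61.9 CPM in IL10RAKO (adjusted p = 0.0721) and 147 ± 45.8 CPM in DKO (adjusted p = 0.0498; passed in 11 of 22 alternatives). MEF2A (173, 166 and 162 CPM in WT, IL10RAKO and DKO) and MEF2D (134, 137 and 158 CPM) did not pass in either knockout. The match is a description of the letters, not of binding.
KLF2: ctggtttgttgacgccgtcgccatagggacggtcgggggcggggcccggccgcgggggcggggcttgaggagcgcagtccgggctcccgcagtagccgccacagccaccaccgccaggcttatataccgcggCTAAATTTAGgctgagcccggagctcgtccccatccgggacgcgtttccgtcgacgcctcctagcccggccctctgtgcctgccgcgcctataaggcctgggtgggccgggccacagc

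Fibroblast and endothelial markers fell in the same comparisons as MAF and KLF2. All 8 tested fibroblast markers were lower in each knockout, and their summed level was 335 to 649 CPM in WT, 21.5 to 59.2 CPM in IL10RAKO and 20.6 to 75.9 CPM in DKO. Of 7 tested endothelial markers 4 were lower in each knockout, the sum of the 8 listed genes being 30.1 to 176 CPM in WT, 12.2 to 25.8 CPM in IL10RAKO and 21.8 to 36.4 CPM in DKO. No gene of either list was at 3 reads or fewer in all mice of a tested group. Neither cell type carries CD45, on which the cells were gated, and the part of any that remained in the falls of MAF and KLF2 was not tested.

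Monocyte markers moved in both directions. LY6C2 was 5.8 to 7.64 CPM in WT, 38.4 to 177 CPM in IL10RAKO and 74.9 to 89 CPM in DKO, and PLAC8, a protein of young myeloid cells, was 67.8 to 113, 224 to 771 and 286 to 445 CPM. Both passed as higher in each knockout, among 10 tested markers, while 2 were lower in IL10RAKO (F13A1 and LY6C1) and 3 in DKO (with CCR2, the deleted gene). The 10 genes summed to 1182.3 to 1285.2 CPM in WT, 830 to 1499.8 CPM in IL10RAKO and 521 to 752 CPM in DKO. The largest in WT were CCR2 (514 to 702 CPM, against 3.92 to 6.68 CPM in DKO) and F13A1 (322 to 368 CPM, against 7.67 to 13 CPM in DKO). F13A1 is also on the MAF list below. The sum therefore does not follow LY6C2 and PLAC8. The sort took Ly6C- cells, and the part of less mature cells in the differences of the 9 factors was not tested.

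**Figure D3:**
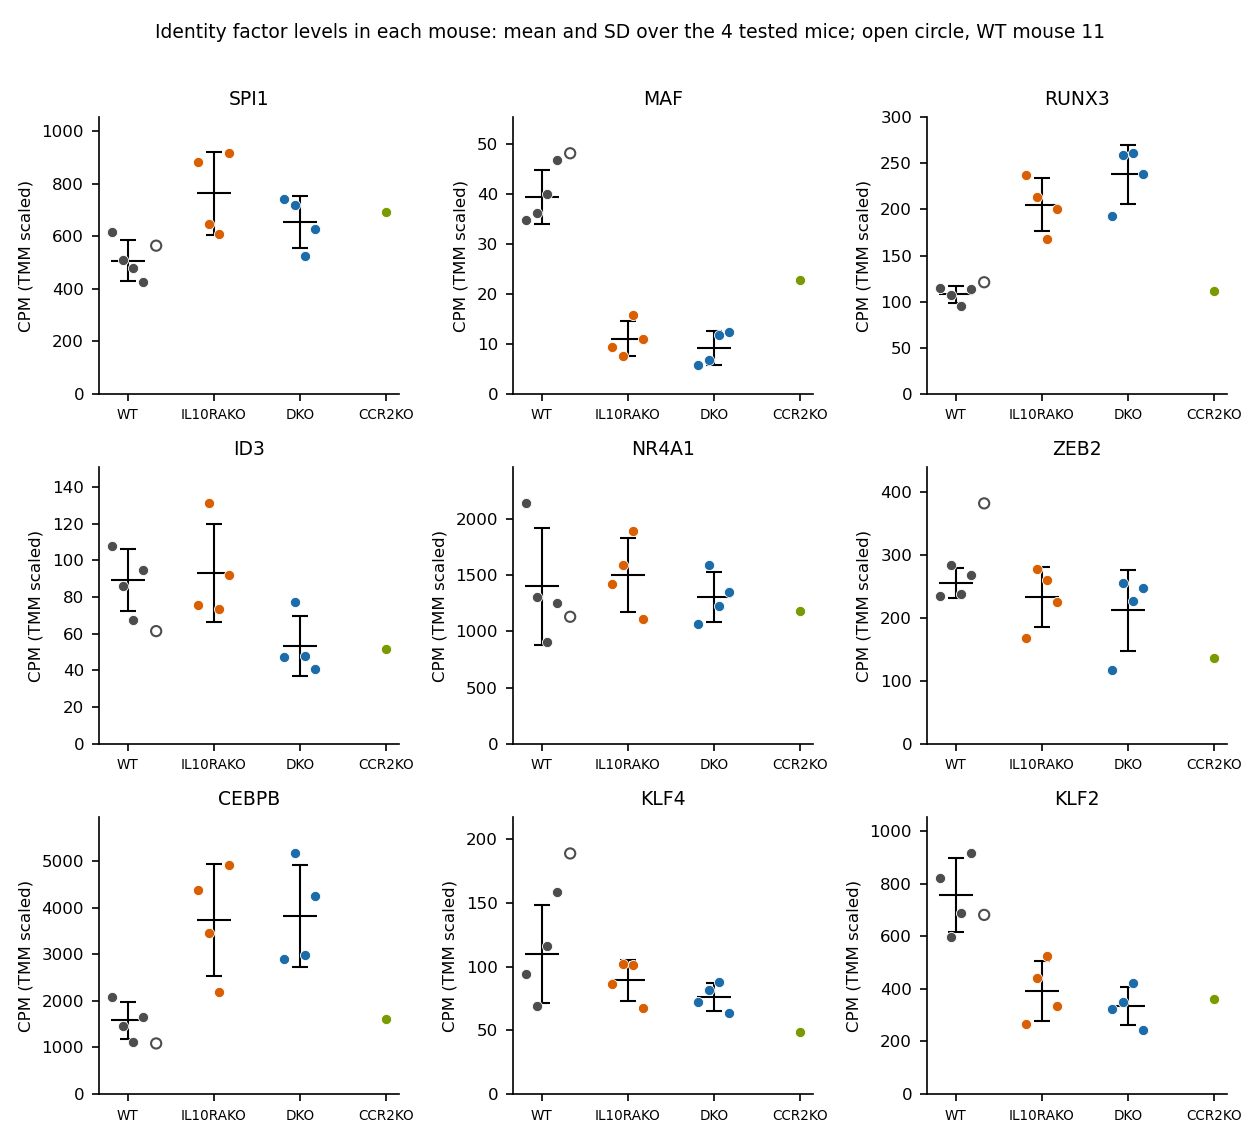
Level of each identity factor in CPM (vertical axes start at 0) in every mouse, by genotype; filled points are mice of the labelled genotype, bars the mean and SD of the 4 tested mice, and the open circle WT mouse 11. For MAF, KLF2, RUNX3 and CEBPB the 4 WT mice stand apart from all 8 IL10RAKO and DKO mice.

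KLF4 (chr4:55527143-55532466, minus strand), a relative of KLF2 that is needed for monocyte formation, measured 93.9, 69.1, 116 and 159 CPM in WT, 86.1, 102, 101 and 67.8 CPM in IL10RAKO, and 72.4, 82, 88.3 and 63.3 CPM in DKO. WT mice varied most (SD 38.3 CPM around a mean of 110 CPM), and the groups overlapped. The log2 fold change was -0.30 in IL10RAKO (adjusted p = 0.426) and -0.52 in DKO (95% interval -1.01 to -0.03, adjusted p = 0.139). The DKO difference passed without WT mouse 5 (-0.68, adjusted p = 0.0449) and with library totals (-0.77, adjusted p = 0.036).

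NR4A1 (chr15:101254269-101274795, plus strand), an orphan nuclear receptor, measured 2139.7, 1308.7, 907 and 1250.1 CPM in WT, 1426.3, 1588.9, 1893.1 and 1106.3 CPM in IL10RAKO, and 1064.9, 1594.5, 1227.2 and 1347.8 CPM in DKO. WT mouse 4 was the highest of all mice and WT mouse 10 the lowest. The difference from WT was 0.10 in IL10RAKO (95% interval -0.42 to 0.62, adjusted p = 0.82) and -0.10 in DKO (-0.62 to 0.42, adjusted p = 0.821). NR4A1 is among the genes that tissue digestion at 37 °C can induce. A list of 22 other genes of that kind had a summed level of 58456.3 to 76961.8 CPM in WT, 52294.9 to 72316.3 CPM in IL10RAKO and 45098.1 to 62956.6 CPM in DKO. Of these 22 genes 4 were higher and 3 lower in IL10RAKO, and 4 were higher and 7 lower in DKO, EGR2 and IER3 leading the rises and JUN and EGR1 among the falls. Their medians were -0.10 and -0.45, and 5 passed in DKO without DKO mouse 14 and 7 without WT mouse 5, WT mouse 10 or DKO mouse 9. Their part in the level of NR4A1 was not tested.

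RUNX3 (chr4:135120652-135177990, plus strand), a Runt factor of T cells, dendritic cells and TGF-beta responses, rose in both knockouts. It measured 115, 107, 95.5 and 114 CPM in WT, 237, 214, 168 and 201 CPM in IL10RAKO, and 193, 259, 261 and 239 CPM in DKO. WT mice lay close together, and every knockout mouse stood above all of them. The rise was 1.9-fold in IL10RAKO (log2 fold change 0.93, SE 0.153, adjusted p = 0.000848) and 2.2-fold in DKO (1.14, SE 0.153, adjusted p = 0.000143).

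RUNX3 is transcribed from a distal and a proximal promoter. Both windows of 250 bases (RefSeq table, GRCm38.p6; distal chr4:135120395-135120644 and proximal chr4:135152295-135152544, plus strand) are shown because they differ in what they hold. The distal window has matches to the Runt motif TGTGGT on the minus strand, in capitals as they read on the plus strand, at 134 and 126 bases before the start, and 65.2% G and C. The proximal window has 78.8% G and C and none of the motifs. TGTGGT was found in 14% of all windows, and reads per gene do not say which promoter was used.
RUNX3 distal: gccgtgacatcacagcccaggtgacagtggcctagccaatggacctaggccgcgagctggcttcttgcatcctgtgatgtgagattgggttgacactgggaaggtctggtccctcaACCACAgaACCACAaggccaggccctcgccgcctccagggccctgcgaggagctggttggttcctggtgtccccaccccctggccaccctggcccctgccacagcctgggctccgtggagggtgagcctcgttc
RUNX3 proximal: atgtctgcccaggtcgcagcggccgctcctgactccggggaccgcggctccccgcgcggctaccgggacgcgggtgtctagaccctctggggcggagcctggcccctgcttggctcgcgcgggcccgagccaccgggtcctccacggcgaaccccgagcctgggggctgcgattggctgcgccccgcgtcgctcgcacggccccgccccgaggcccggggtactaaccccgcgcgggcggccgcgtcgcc

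T cell and dendritic cell markers are given beside RUNX3 because those cells express it. Of 11 tested T and NK cell markers 1 was higher and 1 lower in IL10RAKO, and 2 were higher and 1 lower in DKO. TBX21, the factor of type 1 lymphocytes, was among the higher genes in both (0 to 10.6 CPM in WT, 18.7 to 60.8 CPM in IL10RAKO and 14.7 to 61.5 CPM in DKO), and NKG7, a cytotoxic granule protein, was higher in DKO (1.11 to 2.53, 3.37 to 10.9 and 1.9 to 17.7 CPM). The summed level of the 14 listed genes was 161 to 223 CPM in WT, 110 to 203 CPM in IL10RAKO and 121 to 248 CPM in DKO, and CD3E did not exceed 4.15 CPM in any tested mouse. The largest of them in WT was CD4, the lower gene in both knockouts (101 to 123, 42.7 to 101 and 44.1 to 86.6 CPM in WT, IL10RAKO and DKO). The sum therefore does not follow TBX21 and NKG7. Earlier work cited by the authors found CD4 on mature intestinal macrophages too, so this sum is not a reading of T and NK cells alone. CD8B1 and THEMIS had at most 3 reads in each WT mouse. Of 9 dendritic cell markers 4 were higher and 2 lower in IL10RAKO, and 3 were higher and 3 lower in DKO, so the list did not move one way. Its highest gene, the homing receptor CCR7, rose (194 to 921, 1288.3 to 1759.8 and 973 to 1705.7 CPM in WT, IL10RAKO and DKO), while SIGLECH, a receptor of plasmacytoid cells, fell (16 to 27.8, 1.12 to 2.78 and 0 to 1.44 CPM), as did the factor BATF3 (30.6 to 44.9, 17.9 to 27.7 and 9.63 to 17 CPM). The 9 genes summed to 417 to 1534.2 CPM in WT, 1651.6 to 2063.6 CPM in IL10RAKO and 1129.7 to 1959.2 CPM in DKO, of which CCR7 was the main share. The part of T, NK or dendritic cells in the RUNX3 result was not tested.

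ID3 (chr4:136143497-136145755, plus strand), an inhibitor that keeps E proteins from DNA, had the largest fitted difference of the 9 factors between the knockouts. That difference did not pass the test. It measured 108, 86.1, 67.7 and 94.7 CPM in WT, 75.9, 131, 73.2 and 92 CPM in IL10RAKO, and 47.2, 77.3, 47.9 and 40.8 CPM in DKO. DKO mice 3, 12 and 14 lay below all WT and IL10RAKO mice, while DKO mouse 9 lay among them. Against WT the log2 fold change was 0.06 in IL10RAKO (adjusted p = 0.898) and -0.74 in DKO (SE 0.239, adjusted p = 0.0432). The DKO call was lost without WT mouse 4 (adjusted p = 0.0873), 5 (0.0711) or 13 (0.0915), without DKO mouse 3 (0.108), 12 (0.108) or 14 (0.128), and without IL10RAKO mouse 1 (0.0507) or 8 (0.0592). With WT mouse 11 added it was -0.65 (adjusted p = 0.0933).

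ZEB2 (chr2:44983632-45117395, minus strand), a zinc finger repressor that preserves macrophage identity in several tissues, measured 235, 284, 238 and 268 CPM in WT, 168, 277, 260 and 225 CPM in IL10RAKO, and 118, 256, 227 and 247 CPM in DKO. All groups overlapped, and DKO mouse 3 was the lowest. The log2 fold change was -0.14 in IL10RAKO (95% interval -0.62 to 0.34, adjusted p = 0.733) and -0.27 in DKO (-0.75 to 0.21, adjusted p = 0.443). Zeb2os, on the opposite strand, shares 653 exon bases with ZEB2. ZEB2OS stood at 37.6 ± 11.6 CPM in WT, 27.7 ± 9.71 CPM in IL10RAKO (adjusted p = 0.344) and 16.3 ± 4.15 CPM in DKO (log2 fold change -1.21, adjusted p = 0.0103), and reads from the shared bases cannot be told apart.

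Of the 9 factors, 0 passed between DKO and IL10RAKO by edgeR or by DESeq2, beside 0.0457% of all genes by edgeR (6 of 13136). At an unadjusted p under 0.05 there was 1 factor, ID3 (log2 fold change -0.80, 95% interval -1.32 to -0.29, unadjusted p = 0.00454, adjusted p = 1), beside 388 genes in all. The groups overlapped for all 9 factors, and did not overlap for 2.41% of all genes. The fitted differences ran from -0.80 for ID3 to 0.21 for RUNX3, and 7 were negative and 2 positive. For the other 8 factors the 95% interval lay within a 2-fold change either way, for example -0.54 to 0.60 for CEBPB, -0.86 to 0.33 for MAF, -0.71 to 0.25 for KLF2 and -0.11 to 0.54 for RUNX3. True differences within those intervals are not excluded by these mice.

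Among close relatives, ID2, the sister inhibitor of ID3, rose from 216 ± 18.2 CPM in WT to 524 ± 146 CPM in IL10RAKO (log2 fold change 1.28, adjusted p = 0.000612) and 440 ± 85 CPM in DKO (1.03, adjusted p = 0.00266). NR4A2 rose from 71.5 ± 34 CPM to 286 ± 62.5 CPM (2.00, adjusted p = 0.000601) and 338 ± 39.8 CPM (2.24, adjusted p = 0.000226), while NR4A1 did not pass. NR4A3, the remaining member of that receptor family, rose from 28.6 ± 15.2 CPM to 79.2 ± 26.3 CPM (1.47, adjusted p = 0.0133) and 72.5 ± 18.5 CPM (1.34, adjusted p = 0.0191). For NR4A3 the DKO call was lost without DKO mouse 9 (adjusted p = 0.0632) or WT mouse 13 (0.0543). Differences between a factor and its relative were not tested.

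CEBPD, a C/EBP factor of acute responses, went the other way from CEBPB. It fell from 98.5 ± 15.6 CPM in WT to 56.5 ± 16.4 CPM in IL10RAKO (log2 fold change -0.80, adjusted p = 0.0157) and 43.4 ± 5.77 CPM in DKO (-1.18, adjusted p = 0.00109). The IL10RAKO call was lost without IL10RAKO mouse 2 (adjusted p = 0.0524) or WT mouse 13 (0.0527). CEBPA, which commits progenitors to the myeloid line, stood at 50 ± 24.9, 23.6 ± 15.6 and 24.3 ± 12 CPM in WT, IL10RAKO and DKO (adjusted p = 0.164 and 0.167). RUNX1 stood at 220 ± 9.48, 232 ± 26.7 and 181 ± 20.6 CPM (adjusted p = 0.767 and 0.179) and did not pass, unlike RUNX3.

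SPIC, a relative of SPI1 found in iron-recycling macrophages, stood at 18.6 ± 2.9 CPM in WT, 12.7 ± 3.5 CPM in IL10RAKO (adjusted p = 0.124) and 10.4 ± 1.75 CPM in DKO (log2 fold change -0.84, adjusted p = 0.0199; passed in 17 of 22 alternatives). SPIB, a lymphoid relative, varied widely among mice (51.8 ± 42.4, 51.2 ± 31.2 and 71.1 ± 25.6 CPM). KLF6 fell in DKO from 1789.7 ± 222 to 1240.4 ± 237 CPM (-0.53, adjusted p = 0.0484; passed in 9 of 22 alternatives). ZEB1 was low in all groups (5.57 ± 3.5, 5.06 ± 2.45 and 5.67 ± 1.8 CPM). Of all 29 tested relatives, 5 were higher and 3 lower in IL10RAKO, and 5 were higher and 7 lower in DKO (7 passed in all without WT mouse 13 or DKO mouse 14), with medians of -0.16 and -0.28. RUNX2, the Runt factor of bone, was the rise with the smallest adjusted p in both (6.92 ± 1.89 CPM in WT, 21.7 ± 2.95 CPM in IL10RAKO and 27.1 ± 4.47 CPM in DKO).

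**Figure D4:**
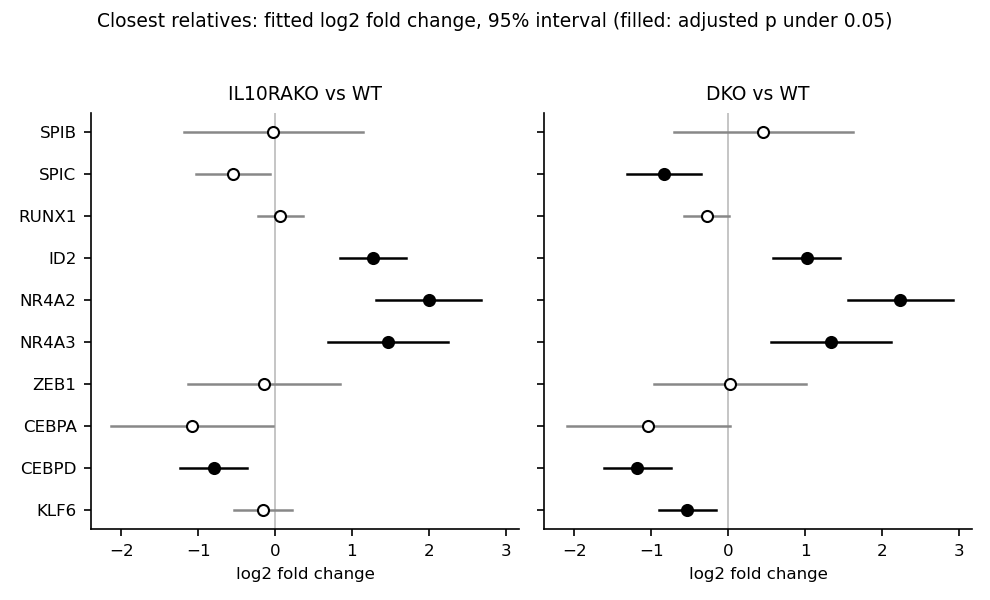
Fitted log2 fold change against WT of the closest relatives of the identity factors (rows), for IL10RAKO and DKO (panels, same axis), with 95% intervals; filled points passed the test. ID2, NR4A2 and NR4A3 lie to the right of 0 and CEBPD to its left in both panels.

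Genes linked to each factor were followed next. Since these lists were chosen with earlier results of these data known, their counts are described and not tested. The shares of all genes are given above for scale. The MAF list, 16 genes of resident macrophages, had 11 lower and 0 higher in each knockout, and the median log2 fold change was -2.64 for IL10RAKO and -3.46 for DKO, beside -0.07 and -0.06 over all genes. F13A1, the A chain of coagulation factor XIII, fell from 344 ± 24.2 CPM to 18.7 ± 4.14 and 10.1 ± 2.61 CPM (-4.20 and -5.09, adjusted p = 1.79e-07 and 1.19e-08). FOLR2, a folate receptor of resident macrophages, fell from 60.1 ± 13.6 CPM to 1.31 ± 0.975 and 0.685 ± 0.39 CPM, and CBR2, a carbonyl reductase, from 125 ± 17.6 CPM to 2.68 ± 2.24 and 1.11 ± 0.632 CPM. The haemoglobin scavenger receptor CD163 and the hyaluronan receptor LYVE1 were also among the 11. The genes that did not pass were the complement genes C1QA, C1QB and C1QC, the phosphatidylserine receptor TIMD4, and IL10 (73.2 ± 41.2, 85 ± 46.8 and 39.4 ± 24 CPM in WT, IL10RAKO and DKO). Under a filter of at least 10 reads in every mouse 6 genes of this list passed in each comparison, since genes that fall to few reads are then not tested.

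The CEBPB list, 13 genes of cytokine and acute phase responses, had 10 higher and 0 lower in each knockout, with medians of 3.26 and 3.58. CCL5, a chemokine for T cells, rose from 20.6 ± 3.72 CPM in WT to 592 ± 304 CPM in IL10RAKO and 443 ± 59.3 CPM in DKO (log2 fold change 4.84 and 4.43). PTGS2, the inducible cyclooxygenase, rose from 407 ± 81.4 to 4868.3 ± 1645.3 and 4887.6 ± 1593.6 CPM, and IL1RN, the interleukin-1 receptor antagonist, from 368 ± 103 to 2970.2 ± 845 and 2508.5 ± 492 CPM. CSF1 and LCN2 were among the genes that did not pass. Many of these genes also answer to other factors, so the list is not a reading of CEBPB alone.

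The SPI1 list of 15 myeloid genes had 5 higher in IL10RAKO and 6 in DKO, with 0 lower, and medians of 0.39 and 0.37. CD14, the lipopolysaccharide co-receptor, which is also on the CEBPB list, rose from 1653.0 ± 187 CPM to 6197.4 ± 1972.5 and 5523.0 ± 890 CPM (log2 fold change 1.91 and 1.74). CSF3R, the G-CSF receptor, rose from 87.3 ± 20.3 to 198 ± 44.5 and 181 ± 39.7 CPM, and CTSS, a lysosomal protease, from 2227.5 ± 360 to 4056.5 ± 1119.6 and 3836.0 ± 346 CPM. CSF1R stood at 2451.0 ± 228, 2847.0 ± 429 and 3163.5 ± 869 CPM and did not pass. The IL10RAKO count dropped from 5 to 3 without WT mouse 4, 5 or 13 or without IL10RAKO mouse 1 or 8, and each count was 3 with library totals.

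The KLF2 and KLF4 list, 10 tested genes, had 2 higher and 4 lower in IL10RAKO and 1 higher and 4 lower in DKO, with medians of -0.85 and -1.01. Thrombomodulin (THBD) fell from 39 ± 14.7 CPM to 11.7 ± 3.9 and 12.2 ± 2.23 CPM, endothelial nitric oxide synthase (NOS3) from 10.3 ± 7.91 to 1.39 ± 0.639 and 1.78 ± 0.849 CPM, and the thioredoxin inhibitor TXNIP from 452 ± 61.8 to 247 ± 94.7 and 162 ± 24.2 CPM. With WT mouse 11 added, which had 1.03 CPM of THBD, neither THBD call held (adjusted p = 0.188 and 0.197), and the IL10RAKO call of TXNIP held in 18 of 22 alternatives (lost without IL10RAKO mouse 1 or 2 or WT mouse 10, and in the fit of 2 genotypes). THBD and NOS3 are also genes of endothelial cells, whose markers fell as given above. The cell cycle inhibitor CDKN1A rose from 527 ± 129 to 1769.4 ± 414 and 1532.4 ± 303 CPM. The trafficking receptor S1PR1, a KLF2 target in lymphocytes, did not pass in either knockout.

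The RUNX3 and TGF-beta list of 14 genes went both ways, with 1 higher and 4 lower in IL10RAKO and 3 higher and 5 lower in DKO, with medians of -0.30 and -0.26. The integrin chain ITGAL rose from 113 ± 30.2 CPM to 217 ± 22.5 and 297 ± 104 CPM (the IL10RAKO call held in 18 of 22 alternatives, and was lost without WT mouse 5 or 13, with WT mouse 11 added and without TMM). PMEPA1, which damps TGF-beta signalling and is induced by it, fell from 146 ± 26.7 to 58.8 ± 21.3 and 50.9 ± 5.14 CPM, and the prostaglandin D2 synthase HPGDS from 101 ± 23.3 to 44.5 ± 11.1 and 38.7 ± 7.8 CPM. TGFBR2, a chain of the TGF-beta receptor, fell from 358 ± 43.5 to 200 ± 77 and 201 ± 55.7 CPM (adjusted p = 0.0354 and 0.033; passed in 13 and 16 of 22 alternatives). The IL10RAKO count of 5 became 2 without WT mouse 5 or 13 and 3 without IL10RAKO mouse 1, 2 or 8 or DKO mouse 9.

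The NR4A1 list, 11 tested genes of Ly6C-low monocytes, had 3 higher and 2 lower in IL10RAKO and 3 higher and 4 lower in DKO, with medians of -0.47 and -0.58. TREML4 rose from 32.8 ± 6.79 CPM to 92.1 ± 30.9 and 79.4 ± 15.8 CPM, while the scavenger receptor CD36 fell from 166 ± 45.8 to 47.8 ± 32.9 and 46.6 ± 9.69 CPM. The fractalkine receptor CX3CR1 stood at 389 ± 52.4, 234 ± 106 and 169 ± 37.6 CPM and passed in DKO (log2 fold change -1.21, adjusted p = 0.0162; called in 19 of 22 alternatives, and lost without DKO mouse 3 or 12 and on the pseudocounts). The IL10RAKO count became 3 without WT mouse 13. ITGAL and CX3CR1 are also on the RUNX3 and TGF-beta list, and CD36 is also on the KLF2 and KLF4 list. LYVE1, named next, is also on the MAF list. These lists are therefore not separate readings. The ID3 and ZEB2 list, 9 tested genes, had 1 higher (NR1H3, the liver X receptor alpha) and 1 lower (LYVE1) in IL10RAKO, and 2 higher (NR1H3 and the scavenger receptor MARCO) and 1 lower (LYVE1) in DKO, with medians of 0.46 and 0.27. With WT mouse 11 added, the calls of NR1H3 (adjusted p = 0.282 and 0.173) and MARCO (0.402 in DKO) were lost. Without IL10RAKO mouse 8, 1 gene of the ID3 and ZEB2 list passed in IL10RAKO.

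**Figure D5:**
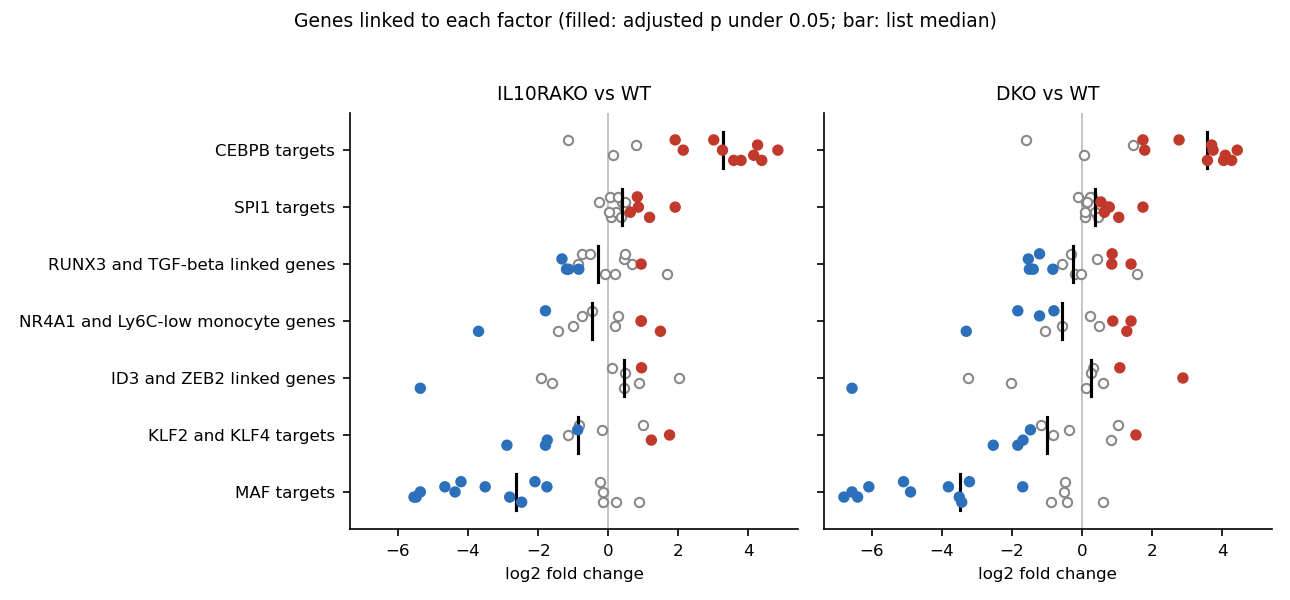
Fitted log2 fold change against WT (horizontal axis) of the tested genes linked to each identity factor (rows), for IL10RAKO and DKO (panels); filled points passed the test, red higher and blue lower, and the vertical bar is the list median. The CEBPB row lies mostly to the right, with 10 filled points in each panel, and the MAF row mostly to the left, with 11.

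Of the proteins that pair directly with these factors, 12 were tested, with medians of -0.26 and -0.13. IRF8, which binds DNA together with SPI1, rose from 505 ± 89.9 CPM to 884 ± 56.7 and 925 ± 102 CPM (log2 fold change 0.81 and 0.87, adjusted p = 0.00219 and 0.00109). JUN fell from 5158.7 ± 533 to 2780.5 ± 445 and 2304.2 ± 368 CPM, and TCF4, an E protein that ID3 can bind, from 110 ± 6.92 to 69.4 ± 14.5 and 57.3 ± 15.1 CPM (adjusted p = 0.0322 and 0.00403). For TCF4 the IL10RAKO call held in 14 of 22 alternatives, with an adjusted p of up to 0.0994 (without IL10RAKO mouse 8), and was lost also without IL10RAKO mouse 1 or 2 or WT mouse 5, 10 or 13, with WT mouse 11 added and on the deposited pseudocounts. Without WT mouse 4 the count was 5 in place of 3 in both comparisons. Of 30 other factors of the macrophage line, 11 were higher and 2 lower in IL10RAKO (8 passed without IL10RAKO mouse 8), and 12 were higher and 3 lower in DKO, with medians of 0.06 and 0.10. NFIL3 rose from 206 ± 51.5 to 686 ± 204 and 662 ± 102 CPM, NFE2L2, the master factor of the oxidative stress response, from 411 ± 43.8 to 882 ± 121 and 861 ± 168 CPM, and TCF7L2 from 25.2 ± 3.98 to 49.7 ± 8.97 and 58.4 ± 2.68 CPM. With WT mouse 11 added, which had 76.9 CPM of TCF7L2, more than any knockout mouse, neither TCF7L2 call held (adjusted p = 0.371 and 0.162). PPARG, a lipid-sensing nuclear receptor, fell from 22.5 ± 2.83 to 9.82 ± 2.82 and 3.86 ± 1.28 CPM. Of all genes on these lists, 0 passed between DKO and IL10RAKO by edgeR and 2 by DESeq2.

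The mice outside the tests were read against the range of the 4 WT mice. The CCR2KO mouse (CCR2 4.3 CPM) keeps its Il10ra gene, but its IL10RA level (182 CPM) lay below the WT range (217 to 380 CPM). In this mouse, CEBPB (1603.2 CPM), RUNX3 (111 CPM) and NR4A1 (1184 CPM) lay within the WT range. MAF (22.8 CPM), KLF2 (363 CPM), KLF4 (48.4 CPM), ID3 (51.5 CPM) and ZEB2 (137 CPM) lay below it, and SPI1 (694 CPM) above it. In this library B and plasma cell markers summed to 3141.4 CPM and fibroblast markers to 736 CPM, both above the tested WT mice (798 to 2191.6 and 335 to 649 CPM), and their part in these levels was not tested. B and plasma cell markers were also present in IL10RAKO (1072.7 to 1584.6 CPM) and DKO (1182.0 to 2608.5 CPM). Of these 9 markers 1 (SDC1) was higher and 0 lower in each knockout. The part of B cells in the levels of the 9 factors was not tested. The MAF level of the CCR2KO mouse was between those of WT and IL10RAKO. Its KLF2 level lay within the ranges of IL10RAKO (268 to 525 CPM) and DKO (244 to 424 CPM). In WT mouse 11, MAF (48.2 CPM), RUNX3 (121 CPM), KLF4 (189 CPM) and ZEB2 (382 CPM) lay above the other WT mice, and CEBPB (1083.6 CPM) and ID3 (61.4 CPM) below them. SPI1 (564 CPM), NR4A1 (1130.6 CPM) and KLF2 (682 CPM) lay within their range. Epithelial markers summed to 3531.8 CPM in WT mouse 11, against 51.8 to 1330.4 CPM in the other WT mice. They summed to 41.7 to 202 CPM in IL10RAKO and 157 to 246 CPM in DKO. Of 8 tested epithelial markers 0 passed in IL10RAKO, and 1 (MUC2) was lower in DKO. The part of epithelial cells in the levels of KLF4 and the other factors was not tested. A single mouse allows no test of its genotype.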

How the data were processed

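RNA of sorted lamina propria macrophages was copied with SmartSeq v4, aligned by the authors with STAR to mm10 and deposited as raw counts, whole reads per gene that were not normalized, in 14 libraries. The authors also deposited edgeR pseudocounts, a score per gene scaled to a common library size, for 13338 genes in 12 libraries. The submitters' processing notes name STAR 2.5.1b, bcl2fastq 2.20 and edgeR 3.34.0. Annotation, strand setting and the treatment of multiply aligned reads are not given in the sources used here.

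Groups came from the sample labels. The 4 WT mice tested were those in the pseudocount table. No batch, litter or sex is labelled, and each replicate is a separate mouse. Columns left out numbered 0. Libraries of a genotype differed by far more than sampling noise (chi-square per degree of freedom of 30 or more).

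The analysis used edgeR 4.0.16 in R 4.3.3. There, filterByExpr (minimum count 10) kept 13136 of 24982 genes, sizes were scaled by TMM, and the 3 genotypes were fitted together with glmQLFit and glmQLFTest (legacy deviance). Benjamini-Hochberg adjustment ran over all tested genes, and 95% intervals come from the same fit. DESeq2 1.42.0 and limma 3.58.1 (on the pseudocounts, with 1 added before log2) were alternatives. The fit was tested on simulated data. Figures used Python 3.11.15 and matplotlib 3.10.9. Totals of 13085287 to 21216468 reads per tested mouse set the precision, and 3 reads served as the floor, which covers counting error only.

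Gene positions and exon lengths came from GENCODE vM21 (GRCm38) and promoter windows from RefSeq (GRCm38.p6), which matched 7 of the 9 factors (not SPI1 and MAF) in 11 windows. Windows were searched on both strands for the GAS element (TTCNNNGAA, found in 7.02% of all 32851 windows), NF-kappaB (0.356%), CRE (TGACGTCA, 1.55%), AP-1 (TGANTCA, 6.75%), MEF2 (3.2%), C/EBP (TTGCGCAA, 0.164%), RUNX (TGTGGT, 14%), KLF (CCACACCC, 3.2%), the MAF element (TGCTGAC, 3.81%), PU.1 (GAGGAAGT, 2.44%), the E-box (CACGTG, 6.02%) and the TATA box (TATAAA, 12.4%).

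The factors and all gene lists were chosen with earlier results of these data known. Named genes are the 9 factors, IL10RA and CCR2, their closest relatives, genes whose exons overlap theirs, and from each list up to 3 genes per direction with the smallest adjusted p. Some of these genes are counted in their lists but not reported here. MEF2C, FCGR1, CSF1R and S1PR1, the other list genes named as not passing, and the marker genes were named after their values were seen. Alternatives were RLE size factors, library totals, DESeq2, the bias-adjusted deviance of edgeR 4, no filter, 10 reads in every library, WT mouse 11 added, fits of 2 genotypes, robust dispersion, the deposited pseudocounts, and a fit without each mouse.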

Additional observations from a re-analysis of the deposited data

Results flagged for a closer look

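SPI1 measured 694 CPM in the CCR2KO mouse, which entered no comparison, and this lay above the highest of the 4 tested WT mice (615 CPM). It rests on a single library. No mouse stood apart from its group by Dixon's criterion for any of the 9 factors in the 36 groups examined.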

How the results depend on the processing

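MAF, RUNX3, CEBPB and KLF2 kept their direction and passed against WT in both knockouts under all 22 alternatives. SPI1 in IL10RAKO passed in 10 of 22 (log2 fold change 0.27 to 0.70, adjusted p 0.0133 to 0.234) and ID3 in DKO in 11 of 22 (-1.01 to -0.63, adjusted p 0.00543 to 0.128). KLF4 in DKO passed in 2 (-0.77 to -0.28). No factor passed between DKO and IL10RAKO under any alternative. With library totals in place of TMM, the median over all genes moved from -0.07 to -0.38 in IL10RAKO and from -0.06 to -0.32 in DKO, and the share of passing genes that were higher from 55.1% to 23.8% and from 50% to 25.9%. Under that scaling the IL10RAKO difference turned negative for ID3 (-0.26), NR4A1 (-0.19) and RUNX1 (-0.24), and the DKO difference of ZEB1 was -0.21. ZEB1 in DKO was -0.01 with the bias-adjusted deviance and -0.02 with 10 reads in every library. With WT mouse 11 added the IL10RAKO difference was 0.18 for ZEB1 and 0.31 for SPIB, and SPIB was 0.07 with the pseudocounts. The TMM factors of the WT libraries (1.09 to 1.18) lay above those of the IL10RAKO libraries (0.851 to 0.972) and the DKO libraries (0.893 to 1.01). The bias-adjusted deviance gave 48.5% and 44.8% of passing genes higher.

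Leaving out 1 mouse at a time moved the small differences across 0, none of them past the threshold: in IL10RAKO ID3 ranged from -0.14 to 0.17, NR4A1 from -0.06 to 0.39, ZEB1 from -0.42 to 0.37 and SPIB from -0.44 to 0.69, in DKO NR4A1 ranged from -0.26 to 0.19 and ZEB1 from -0.21 to 0.53, and between DKO and IL10RAKO ZEB2 ranged from -0.26 to 0.06 and CEBPB from -0.15 to 0.19. Between DKO and IL10RAKO 6 genes passed, 24 by DESeq2 and 4 to 10 when 1 mouse was left out (10 without IL10RAKO mouse 2); of the list genes 0 passed, and 2 by DESeq2. The cause of these changes was not tested. No paired analysis was possible because the groups hold different mice. Depth limits MAF most among the factors, with at least 104 reads per mouse.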
